A study of Mus musculus with 12 samples.

Results

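The sirtuins are a family of 7 mouse genes, Sirt1 to Sirt7, and all 7 were measured in the testes. Their transcripts were taken from the deposited transcript table by gene symbol and by class code, the letter that says how an assembled transcript relates to the reference annotation. Codes =, c, j and o were accepted. This gave 36 transcripts of 71967 in the table, and 7 genes of 24516. Of the 36 transcripts, 14 matched a RefSeq mRNA (code =) and 22 shared at least 1 splice junction with one (code j). The table held 13 transcripts for Sirt3, 8 for Sirt2, 5 for Sirt4, 4 for Sirt1 and 2 each for Sirt5, Sirt6 and Sirt7. Reads were also summed per gene over these transcripts.

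The libraries came from whole testes of wild-type C57BL/6 male mice aged 3, 6, 12 and 18 months (3M, 6M, 12M and 18M), with 3 mice at each age. The labels give no treatment and no engineered allele. RNA left after ribosomal RNA removal was sequenced without strand information, and the table held 50924104 to 71803379 reads per library. According to the study's methods mice of one age may or may not have been littermates, so the p-values measure only the spread between these mice. Markers of the tissue were present. The summed level of 6 spermatid genes was 12291 to 13769 CPM at 3M and 12864 to 15565 CPM at 18M, where CPM is the read count scaled to the library size, while 5 epididymis genes summed to 0.182 to 0.690 CPM over all mice. The summed level of 6 Leydig cell markers was 792 to 948 CPM at 3M and 519 to 710 CPM at 18M, without overlap, and 3 of the 6, the steroidogenic enzymes Cyp17a1 and Cyp11a1 and the receptor Lhcgr, fell with age by the edgeR slope described below. The part of these cells in the sirtuin values was not tested. None of the markers of spermatogonia, spermatocytes, spermatids, Sertoli cells, peritubular myoid and smooth muscle cells, endothelial cells, macrophages and lymphocytes, epididymis or blood was called, and the summed levels of these 9 lists overlapped between 3M and 18M. In whole tissue, fewer cells of a type and less RNA per cell cannot be told apart.

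Sirtuins use NAD+ as a co-substrate to remove acetyl and other acyl groups from lysines, so their activity depends on the NAD+ supply of the cell. Sirt1, Sirt6 and Sirt7 are mainly nuclear deacetylases, with Sirt7 found in the nucleolus and Sirt6 tied to DNA repair and telomeric chromatin. Sirt2 is mostly cytoplasmic and deacetylates tubulin, and Sirt3, Sirt4 and Sirt5 reside in mitochondria. Sirt3 is the main mitochondrial deacetylase, Sirt4 acts on glutamate dehydrogenase and Sirt5 removes succinyl and malonyl groups. Loss of Sirt1 in mice is known to impair spermatogenesis.

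For Sirt1 and Sirt2, RefSeq mRNA variants differ by 1 exon near the 5′ end, and reads were divided between such variants. The sequences are therefore shown, from GENCODE vM21 transcripts on mm10, which matched all 4 of the RefSeq mRNAs needed. Sirt1 exon 2 lies at chr10:63336980-63337096 on the minus strand, is coding, has 117 bases and is absent from variant 2 (NM_001159589). Sirt2 exon 2 lies at chr7:28767632-28767678 on the plus strand, is coding in variant 1 (NM_022432), has 47 bases and is absent from variant 2 (NM_001122765). A length of 117 bases is a multiple of 3, and a length of 47 bases is not. In variant 2 of Sirt2 the bases before the junction are not annotated as coding. In the exon 2 lines capitals mark the exon and 15 bases on each side are in lower case, and in the junction lines capitals mark the first 15 bases of exon 3.
Sirt1 exon 2: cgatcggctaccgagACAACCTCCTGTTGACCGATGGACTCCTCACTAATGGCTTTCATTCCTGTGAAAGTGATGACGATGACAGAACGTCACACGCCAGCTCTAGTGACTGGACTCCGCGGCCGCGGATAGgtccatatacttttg
Sirt1 variant 2 junction: cgatcggctaccgagGTCCATATACTTTTG
Sirt2 exon 2: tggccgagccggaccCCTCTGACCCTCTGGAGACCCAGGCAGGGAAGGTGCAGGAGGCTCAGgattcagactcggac
Sirt2 variant 2 junction: tggccgagccggaccGATTCAGACTCGGAC

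No sirtuin passed a test of change with age at the level of summed reads. None of the 7 passed the edgeR quasi-likelihood test of the slope on age, the comparison of 3M with 18M, or the test of any difference between the 4 ages, at an adjusted p of 0.05 or less. Such calls were rare in the whole table: 0.41% of 18545 genes for the slope, 0.0662% of 18130 genes for 3M against 18M and 0.0917% for any difference. None of the 7 reached an unadjusted p of 0.05 in these edgeR fits, and DESeq2 called none in the slope or in 3M against 18M. At an unadjusted p of 0.05 or less, edgeR took 3244, 2452 and 1913 genes of the table in these 3 comparisons. The CPM of the 3M and 18M mice overlapped for all 7 sirtuins, while it did not overlap for 20.5% of the genes tested.

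The precision differed between the genes. Between 3M and 18M the fitted log2 changes ran from -0.11 for Sirt1 to 0.19 for Sirt6, with a median of 0.03. The narrowest interval was that of Sirt2, whose log2 change of 0.07 ± 0.05 (SE, n = 3 mice per age, adjusted p = 0.599 in edgeR) had a 95% interval of -0.06 to 0.20. The widest was that of Sirt3, whose log2 change of 0.03 ± 0.20 had an interval of -0.44 to 0.49, or 0.740-fold to 1.40-fold. Sirt1 stood at -0.11 ± 0.08 with an interval of -0.29 to 0.08, and Sirt6 at 0.19 ± 0.14 with an interval of -0.14 to 0.52. The 3 other genes, Sirt4, Sirt5 and Sirt7, had log2 changes of 0.07, 0.01 and -0.004. In data simulated from these libraries, edgeR called 18.5% of 200 genes changed 1.5-fold between 3M and 18M and 87% of 200 genes changed 2-fold, among 18100 and 18091 genes. The changed genes were drawn from all genes with a mean above 1 CPM. The rates are averages over such genes and not those of any single sirtuin.

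**Figure D1:**
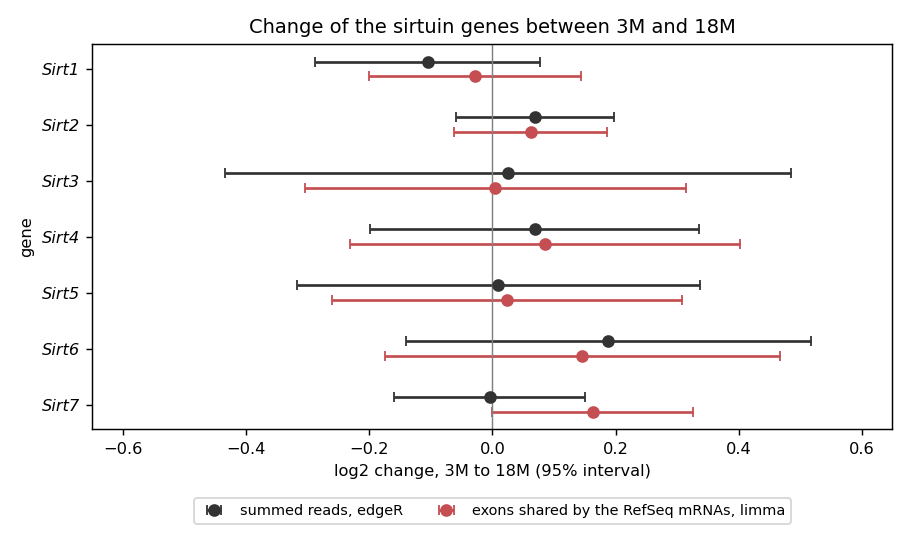
Log2 change from 3M to 18M of each sirtuin with its 95% interval, for summed reads (edgeR, black) and for the exon bases shared by the RefSeq mRNAs (limma, red), 3 mice per age. All 14 intervals include 0, and the widest is that of Sirt3 from summed reads, -0.44 to 0.49.

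The genes differed in level far more than with age. Levels were compared between genes per length, as FPKM (fragments scaled by transcript length and library size) summed over transcripts, with the mean and SD over all 12 mice. Sirt2 was highest, at 45.3 ± 5.02 FPKM, followed by Sirt3 at 19.4 ± 4.88, Sirt4 at 9.03 ± 1.21, Sirt1 at 6.53 ± 1.06, Sirt7 at 3.92 ± 0.415, Sirt6 at 1.85 ± 0.259 and Sirt5 at 1.61 ± 0.133. The mean of Sirt2 was 28.2 times that of Sirt5, and 38.3 times over the exon bases shared by the RefSeq mRNAs. The ranges of Sirt2 and Sirt3, of Sirt3 and Sirt4, and of Sirt7 and Sirt6 did not overlap. Sirt4 and Sirt1 overlapped, with Sirt4 higher in 11 of 12 mice, as did Sirt1 and Sirt7, with Sirt1 higher in 11 of 12. Sirt6 and Sirt5 overlapped too, with Sirt6 higher in 10 of 12. Over the shared exon bases the order of the genes was the same, with Sirt4 above Sirt1 and Sirt1 above Sirt7 in all 12 mice.

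**Figure D2:**
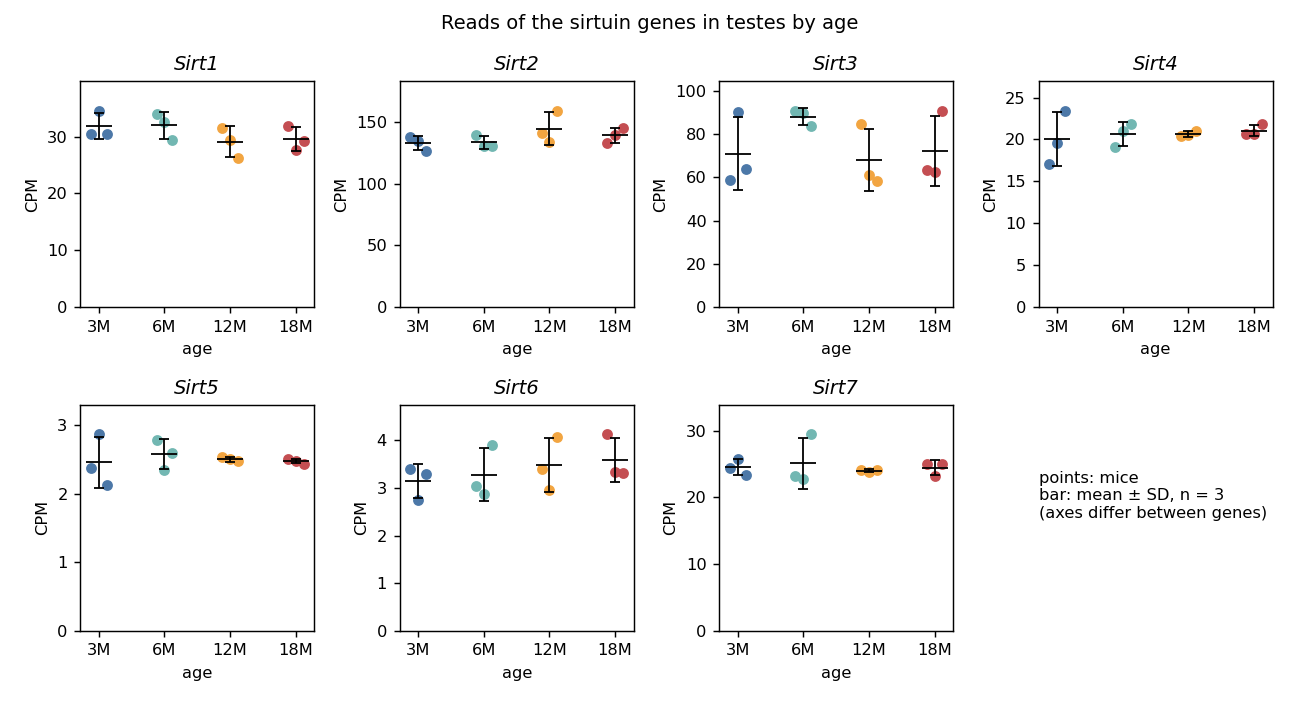
Reads scaled to library size (CPM) summed over the transcripts of each sirtuin, by age, with 1 point per mouse and a bar for the mean ± SD of 3 mice; each panel has its own axis from 0. The ages overlap in every panel, and the 12 mice of Sirt3 lie in 2 separate ranges, 58.3 to 63.9 and 83.6 to 90.9 CPM.

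The nuclear sirtuins are described first. Sirt1 lies on chromosome 10 from 63319005 to 63381704 on the minus strand (GENCODE vM21, mm10). Its reads were 30.5, 34.6 and 30.6 CPM in the 3M mice, 34.1, 32.5 and 29.4 in the 6M mice, 31.6, 29.5 and 26.2 in the 12M mice, and 31.9, 27.7 and 29.3 in the 18M mice. The 4 ages overlapped, and the slope over 15 months was a log2 change of -0.13 ± 0.08 (SE, adjusted p = 0.394 in edgeR). The direction depended on the unit. The mean FPKM of Sirt1 was higher at each step, from 6.13 ± 1.16 at 3M to 6.42 ± 1.92 at 6M, 6.66 ± 0.757 at 12M and 6.91 ± 0.286 at 18M (SD, n = 3), while its CPM did not. FPKM divides each transcript by its own length, and the shares of the reads on transcripts of unequal length differed between mice.

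That division of reads differed between mice. The RefSeq variants 1 and 2 of Sirt1 together held 30.5, 5.97 and 9.15 CPM in the 3M mice, 28.9, 27.7 and 0.983 in the 6M mice, 27.2, 29.7 and 21.1 in the 12M mice, and 26.4, 27.2 and 29.4 in the 18M mice. In 3 mice, 3M replicates 2 and 3 and 6M replicate 3, most reads were assigned instead to MSTRG.1664.1 or MSTRG.1664.4. These extend upstream of RefSeq exon 1 and also share exons with the RefSeq variants. In all mice, the transcripts that extend upstream took 0.0479% to 96.7% of the gene's reads. Variant 1 (NM_019812) and variant 2 each had a higher mean FPKM at every step of age, and the log2 change of variant 1 between 3M and 18M was 0.80 ± 0.61 (SE, adjusted p = 0.952 in edgeR). Over the exon bases shared by both variants, Sirt1 coverage was 6.57 to 7.45 at 3M and 6.66 to 7.28 at 18M on the FPKM scale, a log2 change of -0.03 ± 0.07 (SE, limma). Coverage on this scale is the deposited coverage of the assembled exons, summed over the transcripts of the gene and scaled as the library's FPKM. The 1877 bases directly upstream of RefSeq exon 1 had a mean coverage of only 0.529 over the 12 mice, and at most 1.85. A high share of reads on the upstream-reaching transcripts is thus not a high coverage of these upstream bases.

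The same holds for the single transcripts, whose mean levels over the 12 mice were 17.2 CPM for NM_019812, 5.91 for MSTRG.1664.4, 4.79 for NM_001159589 and 2.76 for MSTRG.1664.1. MSTRG.1664.1 held 27.1 CPM in 3M replicate 2 alone and had no reads in 4 mice, and without that mouse its mean no longer fell at each step.

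Variant 2, the mRNA without the 117-base exon shown above, held a mean of 15.7% of Sirt1 reads, with a range of 0 to 26.8% over the mice. The share in 3M replicate 3 was 0, where 9.15 CPM lay on variant 1. Coverage fell towards the 5′ end of Sirt1, from a mean of 9.16 at exon 8 of 9 to 1.13 at exon 1. An assembled exon carries 1 mean coverage, and in the upstream-reaching transcripts exon 1 is part of a longer exon. The coverage of exon 2 was 3.71, 3.90 and 4.27 in the 3M mice and 2.22, 2.46 and 2.91 in the 18M mice, which did not overlap. This was the 1 of 9 exons of Sirt1 without overlap between those ages. Over the family, 9 of 63 exons had none, 6 of them higher and 3 lower at 18M, with 3 in Sirt2 and 1 in each other gene. The share over the exons of all genes was not computed, so the count is no result about the family. For whole genes, coverage over the exon bases shared by the RefSeq mRNAs did not overlap in 21.4%.

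**Figure D3:**
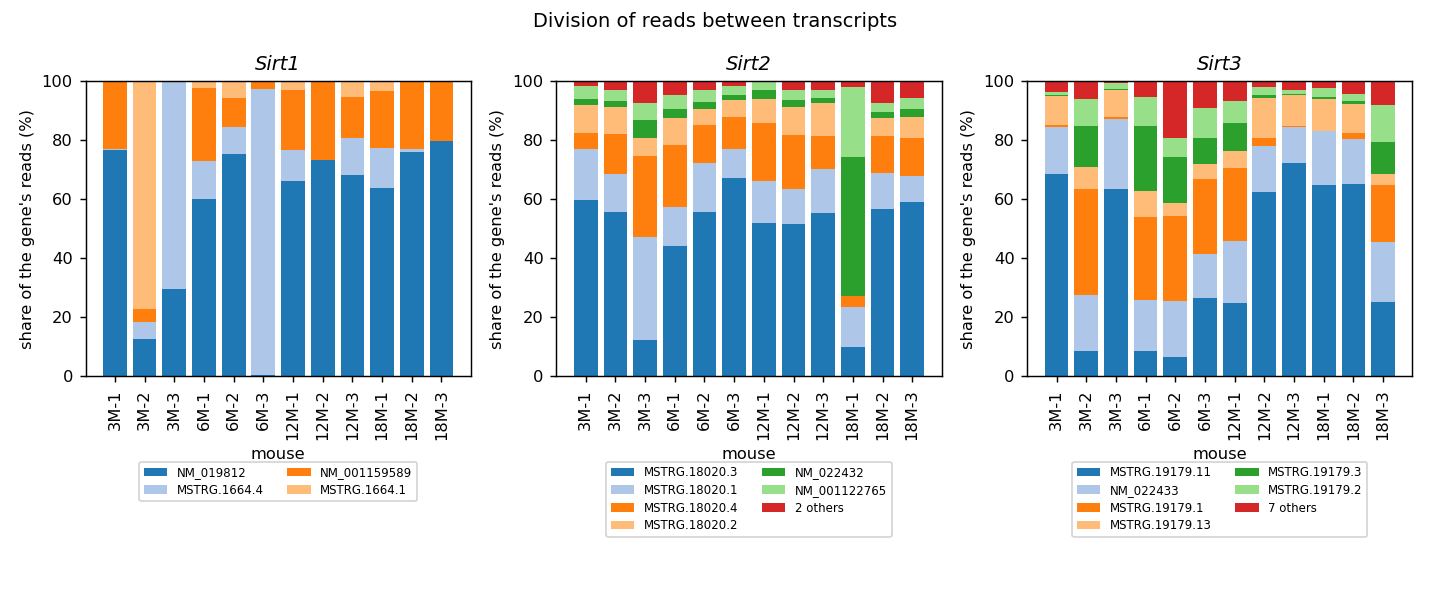
Share of each gene's reads on its transcripts, in percent, for Sirt1, Sirt2 and Sirt3, with 1 bar per mouse (age and mouse number). The shares change between mice of one age, as in 18M replicate 1 for Sirt2, where the RefSeq mRNAs took 71.0% of the reads.

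Sirt6 and Sirt7 completed the nuclear group. Sirt6 lies on chromosome 10 from 81621785 to 81627797 and Sirt7 on chromosome 11 from 120618372 to 120625240, both on the minus strand. Sirt6 had only its 2 RefSeq mRNAs, NM_181586 at a mean of 2.75 CPM and NM_001163430 at 0.621 CPM, and its reads were 3.41, 2.75 and 3.29 CPM at 3M, 3.05, 2.88 and 3.91 at 6M, 3.39, 2.95 and 4.07 at 12M and 4.13, 3.32 and 3.31 at 18M. It had the highest fitted log2 change of the family between 3M and 18M, but at 6M, 12M and 18M 1 mouse each stood at 3.91 to 4.13 CPM above the rest, and the ages overlapped. Sirt7 reads were 24.4, 25.8 and 23.4 CPM at 3M, 23.2, 22.7 and 29.5 at 6M, 24.1, 23.8 and 24.2 at 12M, and 25.1, 23.2 and 25.1 at 18M. The value of 29.5 CPM, in 6M replicate 3, stood above all others. Of the reads, a mean of 13.4% lay on the RefSeq mRNA NM_153056 and the rest on MSTRG.4005.1, of 9364 bases and 21.2 CPM. This transcript runs on into Mafg, a neighbouring gene on the same strand, and shares 5211 of its bases with Mafg exons. Mafg itself averaged 0.338 CPM. The summed reads of Sirt7, and the levels, changes and correlations taken from them, can therefore include reads of Mafg.

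Over its own RefSeq exons, the values of Sirt7 were ordered otherwise. Over the exon bases of NM_153056, the coverage of Sirt7 was 5.80, 5.57 and 5.10 in the 3M mice and 6.01, 6.33 and 6.11 in the 18M mice, and these did not overlap. It was the 1 member of 7 without overlap in that measure, against 21.4% of all genes. The log2 change was 0.16 ± 0.07 (SE, 95% interval of -0.001 to 0.33, adjusted p = 0.339 in limma), and the exact two-sided permutation test over 3 against 3 mice gave p = 0.1, the smallest it allows. The summed reads gave -0.004 ± 0.07, and the outermost exon of MSTRG.4005.1, in Mafg, had a coverage of 0.984, 1.19 and 1.04 at 3M and 0.978, 0.668 and 0.720 at 18M. The Sirt7 exons did not move together. Exon 1 had a coverage of 2.84 to 2.99 at 3M and 2.22 to 2.73 at 18M, lower and without overlap. In MSTRG.4005.1, however, exon 1 is part of an assembled exon of 4860 bases that runs into Mafg and carries 1 mean coverage. The values of exon 1 therefore include a mean over Mafg bases. The means of exons 2 and 3 were also lower at 18M. Coverage over the exon bases of NM_153056 was added as a measure after the data had been seen, and 0.0816% of genes passed its test for 3M against 18M.

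Sirt2, the cytoplasmic tubulin deacetylase and the most abundant sirtuin here, lies on chromosome 7 from 28766735 to 28788661 on the plus strand. It had summed reads of 138, 135 and 127 CPM in the 3M mice, 139.8, 131 and 131 in the 6M mice, 141, 134 and 159 in the 12M mice, and 133, 139.9 and 145 in the 18M mice. The ages overlapped, with the highest value in 12M replicate 3. The reads lay mostly on assembled transcripts. MSTRG.18020.3, whose first exon runs through intron 1 into exon 2, held 67.0 CPM on average, MSTRG.18020.1 20.4, MSTRG.18020.4 19.4, MSTRG.18020.2 10.03 and MSTRG.18020.5 4.62. MSTRG.18020.1 and MSTRG.18020.2 start at chr7:28762130, inside the locus of Nfkbib on the other strand, and each shares 2 bases with its exons. They took 13.4% to 40.9% of the gene's reads, and without strand the reads of the 2 loci cannot be told apart there. In all mice but 1, the 3 RefSeq mRNAs held 6.39 to 15.8 CPM, while in 18M replicate 1 they held 94.5 CPM. That mouse decided the change of 1 transcript. NM_022432 held 62.6 CPM there and 2.52 to 7.72 CPM in the others. Its slope had an unadjusted p of 0.0207 and an adjusted p of 0.622 in edgeR, with a log2 change over 15 months of 2.38, and without 18M replicate 1 the change was -0.33.

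The same mouse stood apart in the FPKM of Sirt2. In 18M replicate 1 the summed FPKM was 58.7, against 38.4 to 49.0 in the other mice, and the gene's log2 change between 3M and 18M in limma on FPKM was 0.27 (unadjusted p = 0.0362, adjusted p = 0.383, with a pseudocount of 0.1). Its slope in the same kind of fit was 0.26 (unadjusted p = 0.00716, adjusted p = 0.175). The FPKM ranges were apart, 38.4 to 43.5 at 3M and 45.4 to 58.7 at 18M, as were those of 19.9% of the genes tested, and the exact two-sided permutation test over the 3 against 3 mice gave p = 0.1, the smallest it allows. Its CPM in that mouse was 133, within the range of the 3M mice, and over shared exons its coverage was 61.4. Over those exons the log2 change of Sirt2 between 3M and 18M was 0.06 ± 0.05 (SE). Coverage rose along the mRNA from a mean of 21.7 at exon 1 to 103 at exon 12 of 16, and was 48.8 at exon 16. In MSTRG.18020.3, exons 1 and 2 lie with intron 1 in 1 long exon with 1 mean coverage, and intron 1 had a mean coverage of 7.89. Exon 2, shown above, had a coverage of 25.6 to 32.9 over the 12 mice, and transcripts that hold it took 58.9% to 87.4% of the reads.

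**Figure D4:**
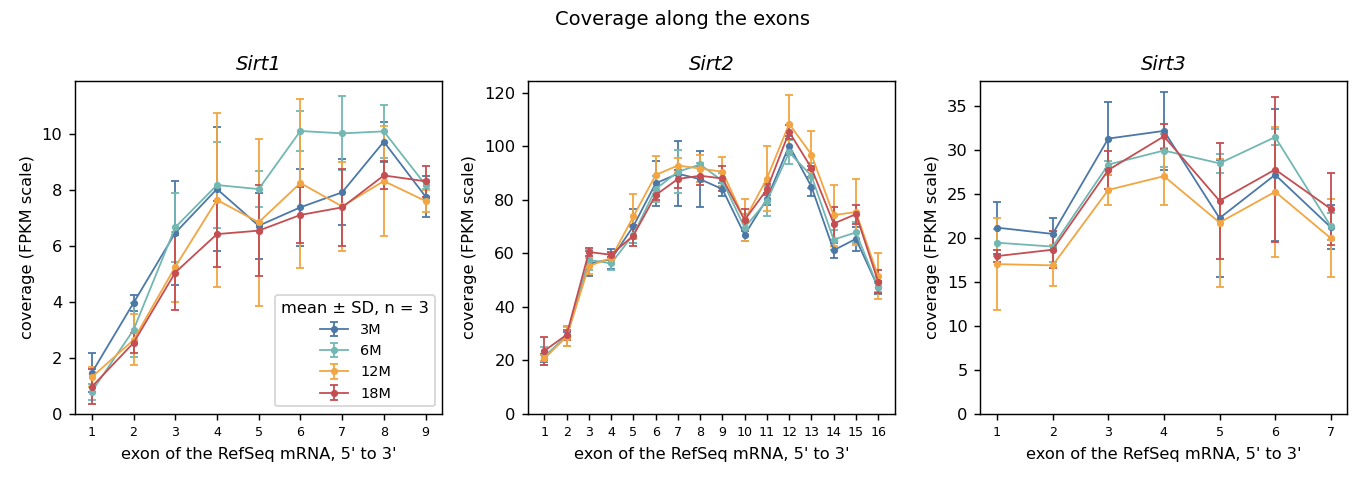
Coverage of each exon of the RefSeq mRNA of Sirt1, Sirt2 and Sirt3, numbered from the 5′ end, on the FPKM scale, as mean ± SD of 3 mice per age. Over all ages Sirt1 falls from a mean of 9.16 at exon 8 to 1.13 at exon 1, and Sirt3 has wide error bars at exons 5 and 6 for 3M, 12M and 18M.

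Among the mitochondrial sirtuins, Sirt3 had the widest spread of the family, with a coefficient of variation of 19.1% over the 12 mice, where Sirt6 had 13.5%. It lies on chromosome 7 from 140863666 to 140882309 on the minus strand. Its reads were 58.9, 90.05 and 63.9 CPM in the 3M mice, 90.9, 89.8 and 83.6 in the 6M mice, 84.6, 61.3 and 58.3 in the 12M mice, and 63.4, 62.4 and 90.6 in the 18M mice. The values formed 2 ranges with none between: 6 mice from 58.3 to 63.9 CPM and 6 mice from 83.6 to 90.9. The higher range held 1 mouse of 3M, 3 of 6M, 1 of 12M and 1 of 18M. All 3 mice of 6M were thus in the higher range, against 1 of 3 at each other age, and the test of any difference between the ages gave an adjusted p of 0.663 in edgeR.

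The reads behind the 2 ranges lay on transcripts that keep an intron. The intron at chr7:140878146-140881762 follows the first exon of NM_001127351, and 3 of the 13 transcripts (MSTRG.19179.1, MSTRG.19179.2 and MSTRG.19179.12) run through it. These 3 together held 0.981 to 3.36 CPM in the 6 mice of the lower range and 26.9 to 44.1 CPM in the 6 of the higher range. The coverage of the intron was 0.114 to 0.286 on the FPKM scale in the former and 3.78 to 5.95 in the latter, the same mice in each. The remaining 10 transcripts held 45.7 to 62.5 CPM over all mice, with no such split.

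At the other end of the gene, the division of reads between transcripts was split among the same mice. Transcripts that keep the intron between exons 5 and 6 (5 of the 13) held 46.2 to 48.5 CPM in the 6 mice of the lower range and 27.4 to 36.8 in the 6 of the higher range. Coverage of exon 5 was 15.2 to 21.7 in the former mice and 27.2 to 31.7 in the latter, and that of exon 6 was 19.0 to 24.0 and 30.6 to 37.1. The coverage of the intron between them was 3.91 to 5.15 in the mice of the lower range and 4.22 to 5.95 in those of the higher range, which overlapped. In those 5 transcripts exons 5 and 6 belong to 1 long exon with 1 mean coverage. Exons 3 and 4, outside the kept introns, had coverages of 23.6 to 34.6 and 24.3 to 35.7 with no such split. Whether the mice differ in intron reads or the assembler divided like reads differently was not tested.

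The most abundant Sirt3 transcript was MSTRG.19179.11, at a mean of 27.5 CPM, followed by the RefSeq mRNA NM_022433 at 13.4, MSTRG.19179.1 at 12.3, MSTRG.19179.3 at 6.15, MSTRG.19179.13 at 5.86 and MSTRG.19179.2 at 4.75. MSTRG.19179.9, MSTRG.19179.8 and MSTRG.19179.12 had means of 1.26, 1.24 and 1.07 CPM, and the last had reads in 1 mouse of 6M only. NM_022433 had mean levels of 14.03 ± 4.07, 15.1 ± 2.21, 11.5 ± 5.73 and 13.1 ± 4.63 CPM (SD, n = 3) at 3M, 6M, 12M and 18M, which overlapped.

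**Figure D5:**
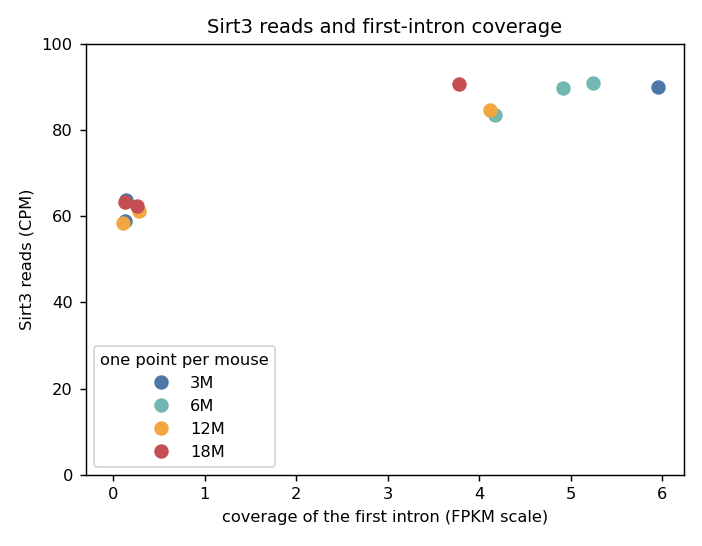
Sirt3 reads summed per gene (CPM) against the coverage of the first intron (FPKM scale), with 1 point per mouse, coloured by age. The 6 mice with a coverage under 0.3 have 58.3 to 63.9 CPM and the 6 mice above 3.7 have 83.6 to 90.9 CPM.

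Over the exon bases shared by the Sirt3 RefSeq mRNAs the split was less marked, with coverages of 21.0 to 29.1 and a log2 change between 3M and 18M of 0.005 ± 0.13 (SE). The last exon of Sirt3 overlaps exons of Ric8a on the other strand by 421 bases, and in GENCODE exons of Psmd13, also on the other strand, cover the 152 bases of its first exon. The reads carry no strand, so those of the genes cannot be told apart there. The RefSeq starts of Sirt3 and Psmd13 point away from each other across 84 bases at chr7:140882310-140882393. The sequence between them, from RefSeq promoters on GRCm38.p6 and written 5′ to 3′ for Sirt3, held none of the motifs searched, so no letter is in capitals.
Sirt3 to Psmd13 gap: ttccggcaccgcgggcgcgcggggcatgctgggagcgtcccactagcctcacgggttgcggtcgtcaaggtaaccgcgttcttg
Psmd13, a proteasome subunit, averaged 72.6 CPM and had an adjusted p of 0.939 between 3M and 18M in edgeR.

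Sirt4 lies on chromosome 5 from 115478010 to 115484725 on the minus strand and Sirt5 on chromosome 13 from 43365496 to 43395203 on the plus strand. Sirt4 reads were 17.1, 19.6 and 23.4 CPM at 3M, 19.1, 21.0 and 21.9 at 6M, 20.4, 20.5 and 21.0 at 12M, and 20.6, 20.6 and 21.8 at 18M, and the widest spread was that of the youngest mice. Its reads were split between transcripts with unlike first exons. The RefSeq mRNA NM_001167691 held 3.73 to 13.9 CPM and MSTRG.15983.3, which starts further upstream, 5.94 to 11.5 CPM. MSTRG.15983.5, from a first exon further out, held 1.16 to 4.53 CPM. MSTRG.15983.3 differs from NM_001167691 in more than the first exon, with 4 exons and 4166 bases against 5 exons and 1645 bases. Sirt5 reads were 2.38, 2.87 and 2.13 CPM at 3M, 2.79, 2.35 and 2.60 at 6M, 2.54, 2.50 and 2.47 at 12M, and 2.50, 2.48 and 2.44 at 18M. A mean of 16.7% of these were assigned to NM_178848 and the rest to MSTRG.5158.1, which begins at a distal first exon at chr13:43365631-43365740. That distal exon had a mean coverage of 0.662 on the FPKM scale over the 12 mice, against 1.87 at exon 1 of NM_178848. The mean FPKM of MSTRG.5158.1 was lower at each step of age, and its log2 change between 3M and 18M was -0.13 ± 0.21 (SE, adjusted p = 0.996 in edgeR).

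Of the 36 transcripts, 27 had a mean of at least 1 CPM over the libraries and 9 a lower mean, of 0.0308 to 0.859 CPM. In the tests, 34 passed the filter on low counts for the slope and 33 for 3M against 18M, and 0 were called in either. The whole table held 0.0103% and 0.108% called transcripts. At an unadjusted p of 0.05 or less edgeR took 1 member transcript for the slope, NM_022432, and 0 for 3M against 18M, where the table had 7.15% and 5.4%. DESeq2 called 0 of them and gave no p for NM_022432. A continuous change, meaning that the mean FPKM rose or fell at each step and reached 1 in at least 1 age, was found for 4 of the 23 transcripts that reached this level. The 2 rising were the Sirt1 variants, where 5.09% of all such transcripts rose, and the 2 falling were MSTRG.1664.1 and MSTRG.5158.1, where 5.05% fell. Among the genes, Sirt1, Sirt2 and Sirt6 rose in FPKM at each step, where 6.34% of genes rose. With CPM in place of FPKM only Sirt6 did, and with the median of the mice only Sirt2.

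The promoters were compared because assembled transcripts of Sirt1 reached upstream of its first exon. Promoter sequences of 300 bases were found in RefSeq for all 7 genes, with 9 entries. The 250 bases before the Sirt1 start are shown, at chr10:63339036-63339285 on the minus strand, with capitals for CACGTG and for GGGCGG or its reverse complement, and with overlapping matches counted.
Sirt1 upstream: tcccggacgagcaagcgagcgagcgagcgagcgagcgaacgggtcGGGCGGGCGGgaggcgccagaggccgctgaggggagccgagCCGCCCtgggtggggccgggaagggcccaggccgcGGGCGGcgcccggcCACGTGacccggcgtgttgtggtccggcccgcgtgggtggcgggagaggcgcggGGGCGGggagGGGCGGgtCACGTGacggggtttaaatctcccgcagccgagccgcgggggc
These bases held 2 matches to CACGTG and 6 to GGGCGG. The full Sirt1 entry had 47 CpG dinucleotides and the other sirtuin entries 15 to 24, against a median of 7 over 32851 promoters. CACGTG, the E-box, was found in no other sirtuin entry and in 7.15% of all promoters. GGGCGG, the GC box, was in 35.7% of all and also in entries of Sirt2, Sirt3, Sirt5, Sirt6 and Sirt7. CCAAT was in 37.4% of all promoters and in entries of Sirt2, Sirt3 and Sirt5, and TATAAA was in 13.6% of all and in none of the 9. A match says only that the letters are present.

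None of the genes beside or overlapping a sirtuin that entered a test was called, and Gm16145, Gm15542, Gm24265, Gm17586 and Mir6936 entered none. Nfkbib, an inhibitor of NF-kappaB whose locus overlaps the 5′ end of Sirt2 on the other strand, had the lowest unadjusted p of the neighbours, with a log2 slope of 0.19 over 15 months (adjusted p = 0.102 in edgeR). Bet1l, a Golgi SNARE beside Ric8a and Sirt3, had a slope of 0.33 (adjusted p = 0.162), and Herc4, beside Sirt1 at a mean of 170.3 CPM, one of -0.04 (adjusted p = 0.783).

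By correlation of log2(CPM + 1) over the 12 libraries with 15336 other genes, given as a description, the genes most like Sirt1 were Cdh5 (r = 0.957), Tbk1 (r = 0.935) and Taf2 (r = 0.929). For Sirt2 they were Ccdc28a (r = 0.971), Sh3rf2 (r = 0.969) and Ly6g6c (r = 0.968), and for Sirt3 Zfp322a (r = 0.900), Cfc1 (r = 0.843) and Cenpc1 (r = 0.818). For Sirt4 they were Mpdz (r = 0.927), Rheb (r = 0.917) and Spdye4c (r = 0.901), and for Sirt5 Nr2f6 (r = 0.854), Zbtb43 (r = 0.848) and E130308A19Rik (r = 0.846). For Sirt6 they were Utp23 (r = 0.925), AI593442 (r = 0.914) and Gpm6a (r = 0.855), and for Sirt7 Igfbp7 (r = 0.954), Ttyh2 (r = 0.910) and Etnk2 (r = 0.902). All points share their library, so its depth and composition enter each r. Within the family, Sirt1 and Sirt3 had the highest r, at 0.604, and Sirt1 and Sirt6 the lowest, at -0.55.

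Genes that supply or share the NAD+ of sirtuins, or that act with them, were read from lists. None of the genes of the 6 lists was called for the slope or for 3M against 18M in edgeR, on reads summed per gene. The paper instead tested single transcripts between 3M and 18M with DESeq2. It lists as increased a transcript of Stk11, a regulator here, and a transcript of Kat2a, an acetyltransferase here. Of 22 genes of NAD synthesis, 17 were tested for the slope, with a median log2 slope of 0.01. Nmrk1, a nicotinamide riboside kinase, had a slope of 0.38 (adjusted p = 0.180) and Nmrk2, its relative, -0.57 (adjusted p = 0.240). Of 24 other NAD consumers and ADP-ribose hydrolases, 23 were tested, and Art1, an ADP-ribosyltransferase, had a slope of 0.44 (adjusted p = 0.102) and Macrod1, a hydrolase, 0.24 (adjusted p = 0.141). Of 20 regulators and partners of sirtuins, 18 were tested, with Usp22, a deubiquitinase, at -0.30 (adjusted p = 0.148) and Foxo3, a transcription factor, at -0.11 (adjusted p = 0.464).

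Among 22 substrates of the mitochondrial sirtuins, 21 were tested, and their median log2 slope was -0.14, against -0.003 for all genes tested. Acadvl, an acyl-CoA dehydrogenase, had a slope of -0.19 (adjusted p = 0.196). The 11 classical histone deacetylases included Hdac11 at 0.24 (adjusted p = 0.139) and Hdac5 at 0.14 (adjusted p = 0.284). Of 12 lysine acetyltransferases, 11 were tested, with Naa60 at 0.17 (adjusted p = 0.194) and Kat6a at -0.24 (adjusted p = 0.222). Their summed level was 700.5 to 760.5 CPM at 3M and 779 to 795 at 18M, and that of the histone deacetylases 510.0 to 534 CPM at 3M and 539 to 546 at 18M, both without overlap. The summed level of the other NAD consumers was 937 to 959.5 CPM at 3M and 911 to 919 at 18M, also without overlap, and those of the remaining 3 lists overlapped. Of single genes tested, 20.5% did not overlap in CPM, and the share for summed lists was not computed. Between 3M and 18M the median log2 change of the genes was 0.02 for the acetyltransferases and -0.004 for the histone deacetylases. For the other NAD consumers it was -0.03.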

How the data were processed

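Testes of 12 mice were measured, 3 at each of 4 ages. Per the labels and methods, the authors aligned reads with HISAT2 to mm10 and assembled and quantified transcripts with StringTie 1.3.3b. The deposited read counts are estimated counts, rounded up by the authors from coverage, length and a 101-base read, and the FPKM are the authors' own, relative to transcript length and library size. Coverage on the FPKM scale was computed here from the coverage signal deposited for each assembled exon, and the bases shared by all RefSeq mRNAs of a gene were tested, a measure added after the data were seen.

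Counts were summed per gene and tested in R 4.3.3 with edgeR 4.0.16 (TMM, filterByExpr, quasi-likelihood F-test, Benjamini-Hochberg adjustment over all genes or transcripts, adjusted p of 0.05 or less) for the slope on age over 15 months, 3M against 18M and any age difference. Standard errors come from the same fits. DESeq2 1.42.0 and limma 3.58.1 (with a pseudocount of 0.1 on shared exons, and a mean of at least 0.1) were alternatives, and Python 3.11.15 with scipy 1.17.1 the other tool. Fits were tested on simulated data. Named were all 7 members, their transcripts with a mean of at least 1 CPM, the 3 most alike genes, neighbours, and called genes of each list or else the 2 with the lowest p for the slope. The values of 1 gene that this rule names are not reported here. The members and lists were chosen with earlier results of these data known. No pair of libraries held identical counts. A gene's reads can include those of overlapping genes on the other strand, since strand was not kept. Those of Sirt7 can also include reads of Mafg, on the same strand, through MSTRG.4005.1.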

Additional observations from a re-analysis of the deposited data

How the results depend on the processing

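Across the alternatives with adjusted p-values, 0 of the 7 sirtuins and 0 of their transcripts were called. Of 273 recomputed log2 changes of the genes, 30 turned direction and 7 had an unadjusted p of 0.05 or less, 6 of them for Sirt2 in limma on FPKM and 1 for Sirt1. With 3 transcripts added, 32 of 360 turned. The lowest unadjusted p was that of the slope of Sirt2 in limma on log2(FPKM + 1), 0.25 (unadjusted p = 0.00707, adjusted p = 0.176). The data limit what could be seen: 3 mice per age, transcripts whose shares of the reads differed between mice, and no strand. At an unadjusted p of 0.05 or less, 3244 genes passed for the slope (76 by adjusted p), 2452 for 3M against 18M (12) and 1913 for any age (17), and 4167 (6) and 2941 (59) transcripts passed for the slope and for 3M against 18M, 1 of them a sirtuin transcript for the slope. DESeq2 called 566 and 266 genes and 1075 and 2098 transcripts for the slope and for 3M against 18M. Without a filter on low counts, 47 genes and 3 transcripts were called for the slope and 22 transcripts for 3M against 18M. A log2 change of 1 or more left 31 genes for the slope. With all 12 libraries in the fit, 22 genes and 18 transcripts were called for 3M against 18M. In limma on log2(FPKM + 0.001), + 0.1 and + 1, 36, 40 and 40 genes were called for the slope, and 6 with 0.001 for 3M against 18M.

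In those limma fits the slope of Sirt1 was 0.20, 0.19 and 0.17 and that of Sirt4 -0.035, -0.035 and -0.034, and the 3M to 18M change of Sirt1 was 0.19, 0.19 and 0.16, of Sirt3 -0.016, -0.016 and -0.015 and of Sirt7 0.0082, 0.0079 and 0.0057, each opposite to edgeR. On shared exons Sirt7 changed by 0.14 (slope) and 0.16 (3M to 18M). With library size as the only scaling, Sirt5 was at -0.0023 for 3M to 18M. The cause was not tested. A continuous change was found for 1 sirtuin transcript with an FPKM minimum of 2 and for 1 with medians (4 in the means), and for 1 sirtuin gene with medians and 1 with CPM (3 in the means).

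The replicate numbers did not mark pairs: the correlation of deviations between same-numbered libraries was -0.063 to 0.17, above 0.1 in 1 of 18 pairs. With the replicate number as a block, 42, 7 and 9 genes were called for the slope, 3M against 18M and any age, and 3 and 0 transcripts for the slope and 3M against 18M.

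Leaving out each library in turn gave 18 genes (without 18M replicate 3) to 192 genes (without 18M replicate 1) for the slope, 14 to 25 for 3M against 18M and 8 to 47 for any age, and 3 to 8 and 8 to 25 transcripts. The slopes ran from -0.016 to 0.13 for Sirt4, -0.086 to 0.051 for Sirt5 and -0.054 to 0.020 for Sirt7. The 3M to 18M changes ran from -0.17 to 0.24 for Sirt3, -0.032 to 0.20 for Sirt4, -0.085 to 0.14 for Sirt5 and -0.038 to 0.035 for Sirt7. NM_022432 ran from -0.33 to 2.99 for the slope and -0.39 to 2.99 for 3M to 18M, negative without 18M replicate 1. Continuous changes were found for 1 to 5 sirtuin transcripts and 0 to 3 sirtuin genes, 0 without 12M replicate 3. Without 18M replicate 1, the slope of Sirt1 was -0.19 (unadjusted p = 0.0443, adjusted p = 0.248 in edgeR).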
